A study of Drosophila melanogaster with 2 samples.

Results

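The dpr and DIP genes encode cell surface recognition proteins of Drosophila melanogaster neurons, and were taken here as the protein-coding genes of the Ensembl annotation whose symbols begin with dpr and a digit or with DIP and a hyphen. This gave 32 of 13968 protein-coding genes, 21 dpr genes and 11 DIP genes. The rule reads symbols and no measured value, although the family itself was taken up with earlier results of these data known. Binding of CG8281 was measured by chromatin immunoprecipitation and sequencing (ChIP-seq) with an antibody against green fluorescent protein (GFP), in whole embryos aged 0 to 20 hours of a stable transgenic line in which CG8281 carries GFP at its C-terminal end. The samples form 1 group of 2 biological replicates, with no second genotype, treatment or time, and whole embryos mix neurons with all other cells. The optimal list of 3921 peaks joins both replicates by the irreproducible discovery rate, and the lists of the pooled data, replicate 1 and replicate 2 hold 30000 peaks each. A summit is the base of a peak that the peak caller marked as its highest point, on the dm6 assembly. The number of reads per sample is unknown. Intervals treat the expected number as fixed and cover counting error alone.

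Dpr proteins (named for a defective proboscis extension response) and DIPs (Dpr-interacting proteins) are members of the immunoglobulin superfamily that bind each other across the gap between cells. Different neurons make different Dprs and DIPs, and the pairs act in choosing synaptic partners, in target layers of the optic lobe and in motor axon branching onto muscles. DIP-alpha binds Dpr6 and Dpr10, DIP-gamma binds Dpr11, and DIP-delta binds Dpr12. Many of these genes are long, with coding exons set among large introns, where enhancers often lie.

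CG8281 summits were rare inside dpr and DIP genes. The 32 genes span 1580 kb and held 2 optimal summits, 1 in DIP-alpha and 1 in DIP-gamma, which is 0.127 per 100 kb of gene (exact Poisson 95% interval 0.0153 to 0.457). Other protein-coding genes of similar length, from 20% shorter to 25% longer than each gene, would give 39.4 summits, or 2.49 per 100 kb. The ratio of found to expected was 0.0508 (0.00615 to 0.183). The 21 dpr genes held 0 summits in 890 kb where 23.5 were expected, with an upper interval end of 0.414 per 100 kb, and the 11 DIP genes held 2 in 689 kb where 15.9 were expected. With the 3921 strongest peaks of replicate 2 alone the ratio was 0.0728, and with those of replicate 1 alone 0.0553. This is a description, with no test, since the gene family was chosen with results of these data known.

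Both summits inside the genes were intronic. Thus 2 of 32 genes had an intronic summit (6.25%, exact 95% interval 0.766 to 20.8%), where the share among genes of similar length gives 12.9 genes. Of all protein-coding genes, most of them far shorter, 8.7% had an intronic summit and 10.7% a summit anywhere inside. The median length was 32.5 kb for the dpr and DIP genes and 2.16 kb for other genes. Introns made up a median of 85.7% of each dpr or DIP gene, beside 81.8% at similar length, and the median GC content was 41.7%, beside 42.0%. Among genes over 30 kb, 2 of 17 dpr and DIP genes held an optimal summit, 11.8%, and 383 of 653 other genes did, 58.7%. Taking genes of 0.5 to 2 times the length with a GC content within 1 percentage point gave a ratio of 0.0509, and genes on the same chromosome arm 0.0623. Other genes of any length within 500 kb of each member gave an expected 29.3 summits and a ratio of 0.0682 (0.00826 to 0.246). These 3 settings were added after seeing the data.

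**Figure D1:**
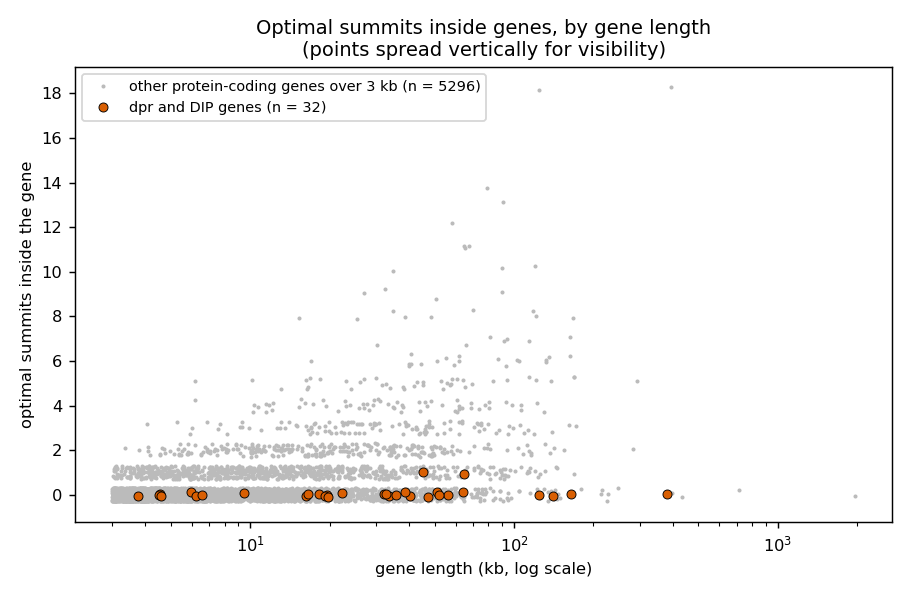
Optimal summits inside each protein-coding gene over 3 kb (vertical axis, a count) against gene length in kb (log scale), with dpr and DIP genes in orange and other genes in grey, and with points spread vertically by a small random amount. The dpr and DIP genes lie at 0 except DIP-alpha and DIP-gamma, which have 1 summit each.

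The 2 intronic summits were a little below the median signal of the optimal list, 217, and both replicates had a peak there. DIP-gamma (FBgn0039617; 3R, 28925004 to 28970372) had a peak at 28961613 to 28961804 with its summit 8663 bp downstream of the transcription start site (TSS), in the first of 10 introns. Its signal, the authors' value per peak on a scale that is not stated, was 189 at rank 2318 in the optimal list. In replicate 1 the same place ranked 2800 with a signal of 78.2, and in replicate 2 it ranked 1993 with a signal of 117. DIP-alpha (FBgn0052791; X, 3507245 to 3571649) had its peak at 3546216 to 3546421. The signal was again 189, at rank 2328. The place ranked 2848 in replicate 1 with a signal of 76.8 and 1984 in replicate 2 with a signal of 117. That summit lay 15606 bp upstream of the nearer TSS of DIP-alpha, so it is intronic only in the transcript from the more distant TSS. No TSS of another protein-coding gene lay within 8663 bp of the first summit or 11541 bp of the second, where the nearest is that of ppk8. The 101 bases centred on these summits are shown because they are the only optimal summits inside any of the 32 genes. They are read on the plus strand of dm6 (RefSeq sequence), with capitals for matches on either strand to 12 short words searched, here an E-box (CANNTG) in DIP-gamma, and a GAGA element (GAGAG) and a run of A (AAAAAAAA) in DIP-alpha.
DIP-gamma, chr3R:28961659-28961759: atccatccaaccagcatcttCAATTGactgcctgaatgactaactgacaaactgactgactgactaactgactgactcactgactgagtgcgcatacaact
DIP-alpha, chrX:3546221-3546321: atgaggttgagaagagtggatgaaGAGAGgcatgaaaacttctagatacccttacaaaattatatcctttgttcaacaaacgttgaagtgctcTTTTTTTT

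Promoter summits were found at dpr14 and dpr19. Counting 500 bp to either side of each annotated TSS as promoter, 2 of 32 genes had an optimal summit there (6.25%, exact 95% interval 0.766 to 20.8%). The share was 12.2% over all protein-coding genes, and genes of similar length would give 6.34 of 32. With the 3921 strongest peaks of replicate 2 in place of the optimal list the count was 0, beside 10.2% of all genes, and with those of replicate 1 it was 1, dpr14, beside 14.2%. None of the 11 DIP genes had a promoter summit in the optimal or pooled list, beside 12.2% and 36.3% of all genes. In the full list of replicate 1, 2 of the 11 had one, DIP-eta and DIP-gamma, beside 41.2% of all genes. With 11 genes such counts are small.

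The dpr14 summit is closer to another gene. dpr14 (FBgn0029974; X, 7903704 to 7908286) encodes one of the less studied Dprs. The peak at 7908587 to 7908813 had a signal of 265 at rank 1510 and its summit lay 415 bp upstream of dpr14, but 230 bp upstream of spidey, a gene on the opposite strand. It ranked 1108 in replicate 1 and 2476 in replicate 2, where the summit lay 88 bp away and outside the 500 bp window. The dpr19 peak (FBgn0032233; 2L, 10376168 to 10379905) covered 10375887 to 10376290, with its summit 79 bp upstream of the gene. Its signal of 127 at rank 3763 was near the lowest of the optimal list, 123. It ranked 4300 in replicate 1, and replicate 2 had no peak summit within 200 bp of it. Another gene, dpr20 (FBgn0035170; 3L, 852720 to 857248), had a summit 570 bp upstream, just beyond the window, with a signal of 187 at rank 2340, rank 2833 in replicate 1 and rank 2084 in replicate 2. These are the optimal summits nearest to a TSS of the family, and their 101 bases are shown in the same way, with 2 GATA elements (GATAA) in capitals for dpr19, a homeodomain element (TAATTA) for dpr14 and an E-box for dpr20.
dpr19, chr2L:10376039-10376139: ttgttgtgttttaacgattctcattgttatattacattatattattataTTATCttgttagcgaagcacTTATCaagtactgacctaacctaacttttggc
dpr14, chrX:7908651-7908751: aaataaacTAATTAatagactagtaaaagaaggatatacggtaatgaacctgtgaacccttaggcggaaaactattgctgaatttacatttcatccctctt
dpr20, chr3L:857768-857868: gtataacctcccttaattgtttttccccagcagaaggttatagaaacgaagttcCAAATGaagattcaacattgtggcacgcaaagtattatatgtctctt

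In the flanks alone, the 5 kb beyond each end and outside the gene, the difference from other genes was smaller. In the optimal list it was not resolved. The flanks held 9 optimal summits in 320 kb, 2.81 per 100 kb, where 14.5 were expected from the flanks of genes of similar length, at 4.53 per 100 kb. The ratio was 0.621, with an interval of 0.284 to 1.18 that includes 1. In the pooled list the flanks held 34 peaks where 78.3 were expected, a ratio of 0.434 (0.301 to 0.607). The flank ratio was 0.671 (0.508 to 0.869) in the full list of replicate 1 and 0.352 (0.232 to 0.513) in that of replicate 2. Outside the optimal list, each of these intervals lay below 1. They cover counting error alone and are no test, and the pooled list is not independent of the replicate lists. With gene and flanks counted together, of the 32 genes 8 had an optimal summit inside or within 5 kb of either end (25%, exact 95% interval 11.5 to 43.4%), with 11 summits in all. Over all protein-coding genes the share was 38.3%, and genes of similar length would give 18.6 of 32. Several of the 11 lay at other genes. The strongest, at rank 112 with a signal of 1970, lay 4416 bp past the end of DIP-iota but inside CG11050, 1031 bp from its TSS. It ranked 86 in replicate 1 and 148 in replicate 2. The second summit near dpr14 lay 6 bp from the TSS of RpS6, a ribosomal protein gene, and the second near dpr19 lay 130 bp from that of CG5096. The second near dpr20 lay inside Dci, 1241 bp from the TSS of that gene. DIP-delta, the partner of Dpr12, had a summit 4896 bp past its end at rank 2286, and DIP-zeta had one 2376 bp past its end at rank 2933. For the DIP-delta summit no other gene had a closer TSS, and for the DIP-zeta summit the nearest was that of CG9582, 17419 bp away.

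Weaker peaks were present in many of the genes but also below the number at similar length. In the pooled list 20 of 32 genes held a peak inside, 62.5% (exact 95% interval 43.7 to 78.9%), beside 29.9% of all genes and 24.9 expected of 32 from genes of similar length. There were 89 such peaks, 5.63 per 100 kb, where 332 were expected, a ratio of 0.268 (0.215 to 0.33). The ratio was lower at stronger ranks, although the intervals of the 3 stronger ranges overlapped. At pooled ranks 3922 to 10000 there were 9 where 65.7 were expected, a ratio of 0.137 (0.0627 to 0.26). At ranks 10001 to 20000 there were 23 of an expected 113, a ratio of 0.203 (0.129 to 0.305), and at ranks 20001 to 30000 there were 55 of 114, a ratio of 0.484 (0.364 to 0.63). The median rank of the 89 was 21410, beside 14790 for the 19640 pooled summits inside other genes, and 12.4% ranked 10000 or better, beside 33.5%. Of the 89, 79 lay in introns outside promoters and 14 of these in the first intron.

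**Figure D2:**
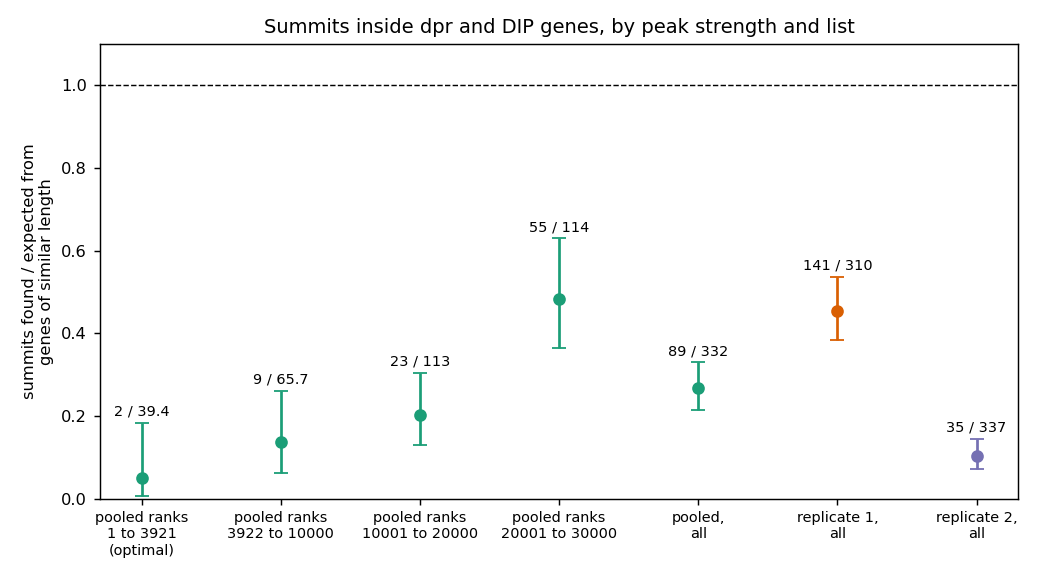
Summits found inside the 32 dpr and DIP genes divided by the number expected from other genes of similar length (vertical axis), for pooled peaks in 4 ranges of rank and for each full list, with both numbers printed. Bars are exact Poisson 95% intervals of the count found, the dashed line marks 1, and the ratio is 0.0508 in the optimal range and 0.484 in the weakest range.

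The replicates differed in how many weak peaks they placed in the genes. Replicate 1 had 141 peaks inside them, 8.93 per 100 kb, a ratio of 0.455 (0.383 to 0.536) to genes of similar length. Replicate 2 had 35, 2.22 per 100 kb, a ratio of 0.104 (0.0724 to 0.145). Inside other genes the full lists were alike, at 22.6 and 22.0 per 100 kb. The ratio was below 1 in both replicates. Of the 141, 74 ranked past 20000 and 18 lay in exons, and of the 35, 17 ranked past 20000 and 1 lay in an exon. Of the 89 pooled peaks, 49 had a summit of replicate 1 within 200 bp, 55.1%, beside 59.1% of the pooled peaks inside other genes. For replicate 2 it was 28, 31.5%, beside 73.1%, and 14 had both, 15.7%, beside 41.1%. The lower share with both thus went with replicate 2. The pooled peaks of other genes ranked higher, and the shares were not matched for rank. With 2 replicates, no test of the difference between them was possible.

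DIP-alpha had the highest pooled density of the 32 genes. It held 11 peaks in the pooled list, 11 in replicate 1 and 11 in replicate 2, each 17.1 per 100 kb, beside 26.1 in the pooled list for genes of similar length. The short genes dpr5 and dpr7 were close to it in the pooled list, at 16.8 and 16.1 per 100 kb from 1 peak each. In single replicates other genes were denser, from few peaks. Examples are dpr9 in replicate 1 at 26.9 per 100 kb (6 peaks in 22.3 kb) and dpr18 in replicate 2 at 30.5 (2 peaks in 6.57 kb). Of the 11 peaks of DIP-alpha in replicate 1, 5 had a summit of replicate 2 within 200 bp. The second pooled peak of DIP-alpha, at rank 4863 with a signal of 102, lay 8166 bp downstream of the TSS, within the nested gene ppk8. It ranked 7081 in replicate 1 and 4040 in replicate 2. DIP-gamma held 5 pooled peaks, 7 in replicate 1 and 2 in replicate 2, its next strongest at ranks 5248 and 6320. These 2 genes were the DIP genes with a pooled peak ranked 10000 or better.

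The genes of the DIP-alpha partners, dpr6 and dpr10, held weak peaks but none of the optimal list. dpr6 (FBgn0040823; 3L, 9974651 to 10139360), with 164710 bp the longest dpr gene, had 14 peaks in the pooled list, 26 in replicate 1 and 6 in replicate 2. The pooled density was 8.5 per 100 kb, beside 17.7 for genes of similar length. In replicate 1 it was 15.8 beside 17.9, and in replicate 2 3.64 beside 17.2. Its strongest pooled peaks ranked 4967, 7077, 7831 and 8318 and all lay in the 7th of 8 introns, 114063 to 120838 bp from the TSS of dpr6. That intron also holds other genes, and 2 of these summits lay 98 bp and 157 bp upstream of the TSSs of CG32054 and CG32053. The peak ranked 4967 had rank 8741 in replicate 1 and 3542 in replicate 2, so dpr6 joins DIP-alpha and DIP-gamma as a gene with an intronic summit among the 3921 strongest peaks of replicate 2. The neighbouring dpr10 (38.7 kb) held 6 pooled peaks, 8 in replicate 1 and 3 in replicate 2, the strongest pooled one at rank 11408.

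**Figure D3:**
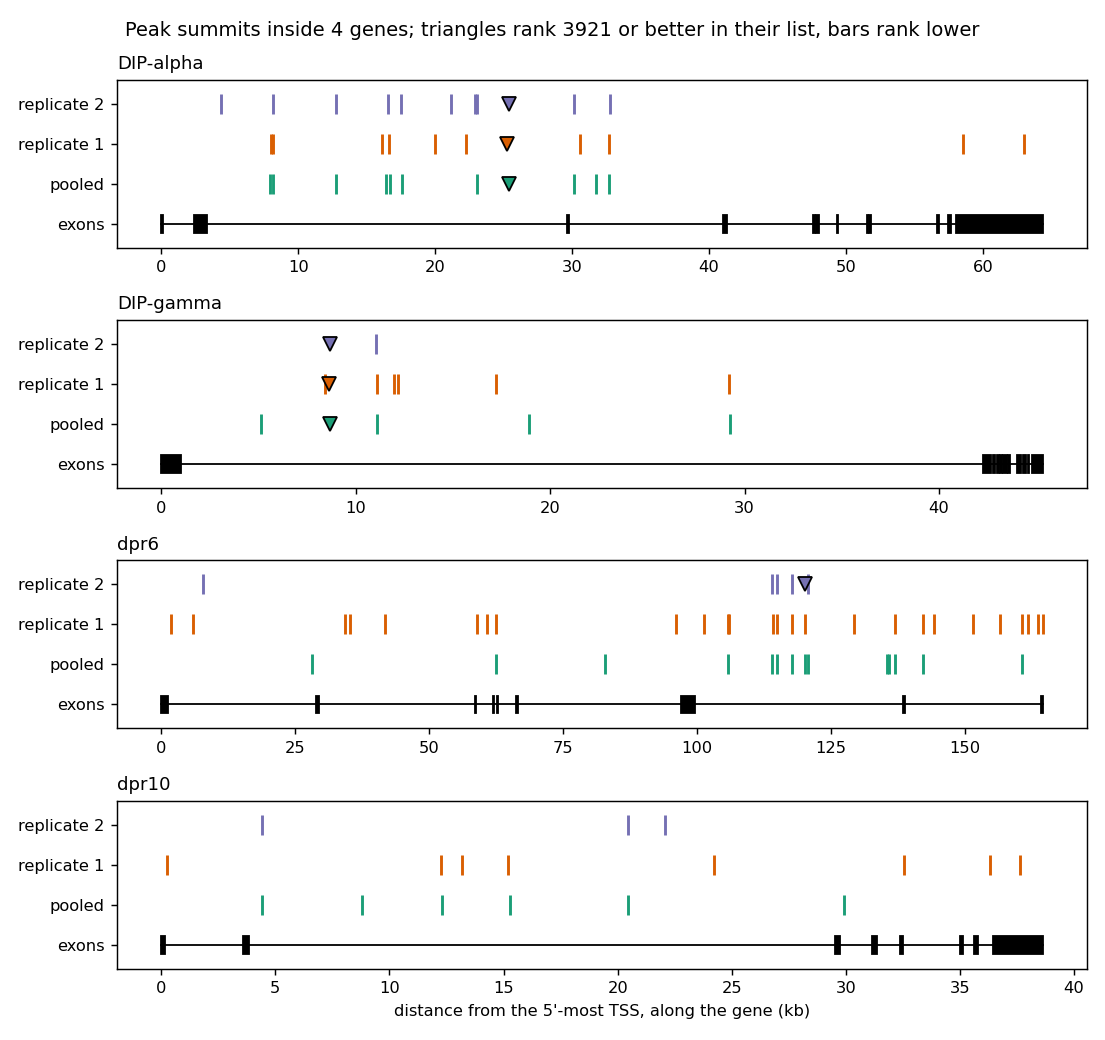
Exons (black boxes) and peak summits of the pooled list and both replicates along DIP-alpha, DIP-gamma, dpr6 and dpr10, by distance in kb from the most upstream TSS. Triangles rank 3921 or better in their own list, bars rank lower, and the triangles lie in introns of DIP-alpha and DIP-gamma in all 3 lists and in dpr6 in replicate 2.

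Among the remaining genes, the pooled peaks were weak and seldom shared by the replicates. dpr8 (X, 140 kb) held 8 pooled peaks, 8 in replicate 1 and 3 in replicate 2, with the strongest pooled one at rank 11090. dpr1 (52.0 kb), the founding gene of the family, identified through the response to salt, held 8, 3 and 2 in the same order, and dpr2 (47.1 kb) held 6, 8 and 3. dpr11 (64.2 kb), whose product binds DIP-gamma, held 5 pooled peaks, 10 in replicate 1 and 0 in replicate 2. dpr12 (56.1 kb), whose product binds DIP-delta, held 6, 7 and 0. DIP-kappa (40.5 kb) and DIP-epsilon (33.6 kb) held 4 and 3 pooled peaks, 7 and 4 in replicate 1 and 0 in replicate 2. Replicate 1 had a peak inside 27 of 32 genes, 84.4%, beside 41.7% of all genes and 28.2 expected at similar length. Replicate 2 had one inside 10, 31.2%, beside 27.9% of all genes and 23.5 expected at similar length.

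**Figure D4:**
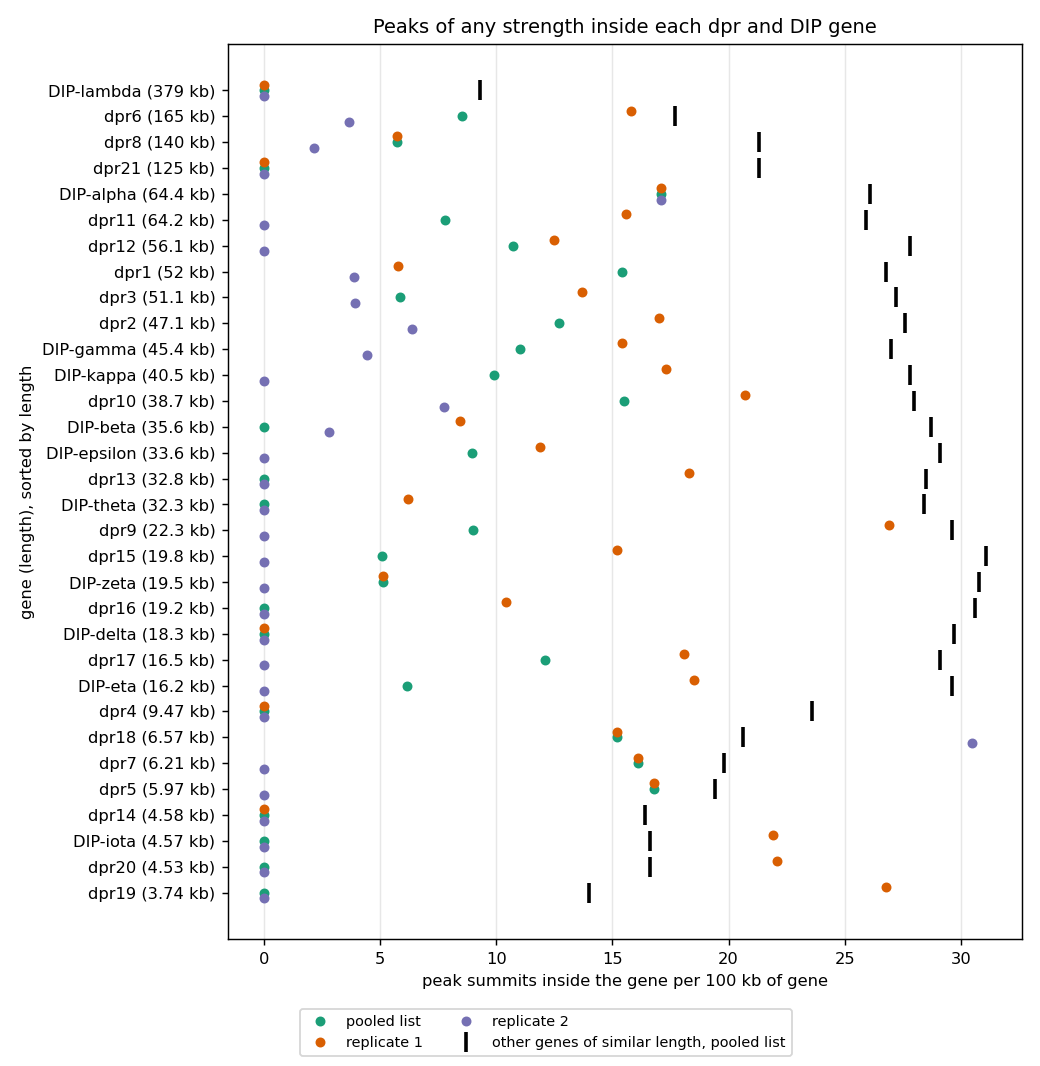
Peak summits of any strength inside each of the 32 genes per 100 kb of gene (horizontal axis), for the pooled list, replicate 1 and replicate 2, with genes sorted by length. Black ticks give the pooled density of other genes of similar length, and in the pooled list DIP-alpha is highest at 17.1 while 12 genes are at 0.

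Genes without any peak inside included the longest of the family. DIP-lambda (FBgn0267428; 2R, 326768 to 705848), 379 kb long, and dpr21 (FBgn0260995; 2R, 3066499 to 3191011), 125 kb long, had 0 peaks within 5 kb in the optimal, pooled and both replicate lists. For DIP-lambda 3 other genes are of similar length, at 9.31 pooled peaks per 100 kb, and for dpr21 there are 61, at 21.3 per 100 kb. The 3 genes are uneven, so the number expected for DIP-lambda is uncertain. Among them kirre (394 kb) held 18 optimal summits, and CG17684 (396 kb) held 0 optimal and 0 pooled summits. The other protein-coding genes within 500 kb, 3 for DIP-lambda and 4 for dpr21, also held 0 pooled peaks inside. The zeros are thus shared with the surroundings on 2R, where the ability to map reads was not tested. Leaving both genes out lowers the total from 1580 to 1080 kb. Without them the ratio in the optimal list was 0.0641 and in the pooled list 0.329, a setting added after seeing the data. The short genes dpr4 (9.47 kb) and dpr14 (4.58 kb) and the 18.3 kb gene DIP-delta also had 0 peaks inside in all 4 lists.

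Weak promoter peaks were also fewer than at similar length. In the pooled list 6 of 32 genes had a promoter summit, 18.8% (exact 95% interval 7.21 to 36.4%), beside 36.3% of all genes and 19.4 expected of 32. Besides dpr14 and dpr19 these were dpr5, dpr2, dpr12 and dpr7. dpr5 had summits 149 bp upstream and 68 bp downstream of its TSS at ranks 18599 and 20503, dpr2 had one 61 bp downstream at rank 18752, dpr12 one 141 bp downstream at rank 25254, and dpr7 one 228 bp downstream at rank 29146. Replicate 1 had promoter peaks at 10 of the genes and replicate 2 at 2, where 18.5 and 18.6 were expected at similar length. The share was 31.2% in replicate 1, beside 41.2% of all genes, and 6.25% in replicate 2, beside 33.8%. The exact 95% interval of the replicate 1 share included that of all genes. The interval of the replicate 2 share, 0.766 to 20.8%, did not. The genes with one in both were dpr2 and dpr18, 2 of 32, beside 23.7% of all genes and 14.1 expected. Their summits did not coincide. In dpr2 the summit lay 103 bp downstream of the TSS in replicate 1 and 460 bp upstream in replicate 2, and in dpr18 391 bp downstream and 480 bp upstream.

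The promoters of the family differed from the average promoter in base composition. From 250 bp before to 50 bp after the most upstream TSS the median GC content was 49.7% in the 32 genes and 38.0% over all 13968. The median GC content was 36.8% in the 201 bases around the 3921 optimal summits and 34.3% around the 11 within 5 kb of the family. Around pooled summits it was higher, 41.3% both inside the family and inside other genes. Whether base composition has a part in the low promoter count was not tested. Only some of the 12 words searched on either strand are given here. The DRE (TATCGATA), bound by Dref, was in 1 of 32 promoters, 3.12%, beside 9.36% of all promoters. Motif 1 (GGTCACAC), bound by M1BP, was in 0 of 32 beside 7.69%. The run of A was in 1 of 32, 3.12%, beside 15.9%, and the homeodomain element in 3, 9.38%, beside 20.4%. The E-box was in 25 of 32, 78.1%, beside 77.2%. These counts are small, and promoters of genes of similar length were not compared in GC content or words. The GAGA element was in 14 of 32, 43.8%, beside 29.7%. The word GATAA was in 10 of the 11 summit windows of 201 bases, beside 40.4% of all optimal summits. It was in 34.8% of the 89 pooled summits in the family, beside 37.7% in other genes, and in 12 of 32 promoters, 37.5%, beside 55.1% of all promoters. The 101 bases printed above are a shorter window. These are counts of letters, not of binding sites, and were not tested.

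Other families of cell surface recognition genes, not all of them particular to neurons, had ratios from 0 to 2.28. Against genes of similar length, the 22 genes of the Beat and Side families, another ligand and receptor network of the nervous system, held 11 optimal summits at a ratio of 0.365 (0.182 to 0.653) and 0 promoter summits. Most of these were in beat-IIIc and beat-Ib, with 3 each, and side had 2. The 4 Dscam genes, which serve self-avoidance of neurites, held 0 where 5.49 were expected, with an upper interval end of the ratio of 0.672. A list of 23 other surface protein genes, drawn up for immunoglobulin proteins but not confined to them, held 26 at a ratio of 0.82 (0.536 to 1.2). It was led by Ptp10D with 6, fra, the Netrin receptor, with 4, and Fas3 with 3. Ptp10D is not an immunoglobulin protein, and the ratio without its 6 summits was not computed. In this list 4 genes had a promoter summit, 17.4%, the strongest at Ama (signal 262), tutl (244) and Ptp99A (136). The 12 genes of leucine-rich repeat, teneurin and cadherin proteins held 13 at a ratio of 0.7 (0.373 to 1.2), with 5 in Ten-a and 3 each in caps and haf. Of the 12, 3 had a promoter summit, 25.0%, Toll-7 (signal 713), Ten-m (216) and Ten-a (168). The Dscam genes and those of the Irre cell recognition module had 0 promoter summits. The share was 6.25% in dpr and DIP and 12.2% over all protein-coding genes. The 4 genes of the Irre cell recognition module held 22 at a ratio of 2.28 (1.43 to 3.45), of which 18 lay in kirre, 3 in rst and 1 in hbs. The genes of each comparison family stayed among the genes of similar length. The long gene kirre (394 kb) was thus compared in part with itself, and the ratio of its family depends on that. In the pooled list the ratios were 0.519 for Beat and Side, 0.281 for Dscam and 0.268 for dpr and DIP, beside 0.852 to 2.14 for the other three. The differences between families were not tested.

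**Figure D5:**
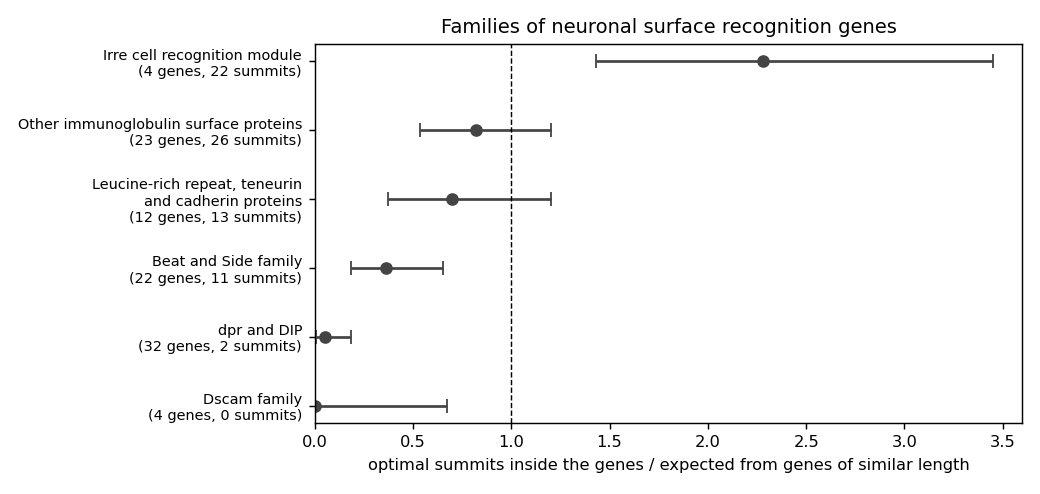
Optimal summits inside the genes of each family divided by the number expected from genes of similar length (horizontal axis), with exact Poisson 95% intervals of the count and a dashed line at 1. The dpr and DIP genes are at 0.0508, the Dscam genes at 0 and the Irre cell recognition module at 2.28.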

How the data were processed

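Per the labels, chromatin was sonicated, with fragments of 200 to 800 bp. The antibody field of the labels names CG8281 and the description an anti-GFP antibody. Per the file lists deposited with the samples, the authors called peaks on dm6 for each replicate and for both together against a control, and took the optimal list from those 3. The sources used here name no caller, aligner or threshold. The deposited signal per peak has no stated scale and was ranked within a list. The deposited −log10 of q was not used. A summit is the interval start plus the deposited offset. The 3921 optimal peaks are also the 3921 strongest pooled peaks.

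Genes came from Ensembl release 115, and sequence from RefSeq, in which the first coding codon was ATG in 99.5% of genes. The expected count sums, over the members, length times the summit density of other genes of similar length. For the comparison families only the dpr and DIP genes were left out of the genes of similar length, so each family's own genes stayed in. SciPy 1.17.1 gave the exact Clopper-Pearson and Poisson intervals at 95%, with pandas 2.3.3, NumPy 2.4.6 and Matplotlib 3.10.9 under Python 3.11.15. The code that computes the ratio was tested on simulated summits placed at a known ratio, which its interval included. No test was made of the members themselves. There are no p-values. The naming rule took every member with an optimal summit within 5 kb, up to 5 with pooled promoter peaks, the 3 longest without a summit and up to 3 genes per comparison family. Other members were named after their values were seen. Members and lists were chosen with earlier results of these data known.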

Additional observations from a re-analysis of the deposited data

How the results depend on the processing

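The ratio to genes of similar length stayed below 1 under every alternative run. The promoter count of 2 was 1 with the stronger 50% of the peaks (6.76% of all genes) and with a 250 bp window (9.13%), and ranged from 0 to 1 with one replicate left out. The intron count of 2 was 3 of 32 without replicate 1. That is a higher share than the 8.5% of all genes, most of them far shorter, but the summit ratio at similar length was then 0.0728. The intron count was 0 with the stronger 50% (5.55% of all genes). It was 1 when the summit had to be intronic in every transcript and in no other gene. The count of 8 genes within 5 kb was 3 with the stronger 50% and 5 within 2 kb, where the share of all genes fell from 38.3% to 24.4% and 26.2%. Summits per 100 kb were 0 with the stronger 50% (ratio 0), 0.506 with 7842 pooled peaks (ratio 0.0993), 5.63 with all pooled peaks (ratio 0.268), 8.93 with all of replicate 1 (ratio 0.455) and 2.22 with all of replicate 2. The full lists were added after seeing the data. Promoter peaks in both replicates were at 0 genes when the summits of the replicates had to lie within 200 bp of each other (19.9% of all genes), at 0 within 250 bp of a TSS (15.9%), and at 4 within 1000 bp (31.4%). The other settings stayed within 1.5 times the count or inside the interval of the density or ratio. No paired analysis was possible because there is 1 group. Depth is unknown, so absence from a list is no absence of binding.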

Other observations

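The window around the DIP-gamma summit holds a run of the word CTGA, with 9 matches on either strand in 101 bp. The median over the optimal summits was 0, and 32 of 3921 windows, 0.816%, held as many. The word was chosen after the sequence was seen.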
